A study of Mus musculus with 2 samples.

Results

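Transcripts of 9 digestive enzymes of the intestinal brush border were followed in single cells of the mouse jejunum. The genes were chosen by symbol, 9 of the 31053 genes listed in the files, and all 9 were found. They encode 4 peptidases (Anpep, Dpp4, Enpep and Mme), 4 disaccharidases (Sis, Mgam, Lct and Treh) and the intestinal alkaline phosphatase Alpi. The cells had been sorted for the GFP of the Lgr5-eGFP-IRES-CreER allele, which both groups carried and which marks crypt base stem cells by the promoter of Lgr5. Per the labels, the mice were female, 10 to 12 weeks old, with 3 mice per condition. Control mice are labelled Fc control and treated mice FZD5/8 antagonist, FZD5 and FZD8 being receptors for Wnt ligands. Each condition gave 1 library. The labels state neither dose nor duration, and whether the mice of a condition were pooled cannot be read from them.

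The brush border is the carpet of microvilli on the luminal face of absorptive enterocytes. Its membrane holds enzymes that finish digestion: peptidases trim peptides to amino acids and short peptides, and disaccharidases split maltose, sucrose, lactose and trehalose to sugars that carriers can take up. Stem and transit-amplifying cells of the crypt carry little of this machinery, and its transcripts accumulate as daughters of these cells move onto the villus and mature, although individual enzymes need not start together.

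Cells entered the counts if 500 or more genes were detected and no more than 20% of their UMIs were mitochondrially encoded. The control library had 11263 kept cells with a median of 4478 UMIs, and the antagonist library 11019 with a median of 2732. A UMI is a molecular tag that counts 1 captured transcript. A level is a CPM value, the UMIs of a gene scaled to a total of 1000000 in the same cell set. With 3' end counting levels are not divided by transcript length, so an order of levels among genes is an order of captured tags. Each group being 1 library, nothing was replicated and no test was made. Every interval is a 95% interval for counting error only, and each comparison is between these libraries, not between the conditions. Differences are called by size, at 1.5-fold.

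Enterocyte-gated cells had at least 2% of their UMIs, and at least 10 UMIs, from Apoa1, Apoa4, Apob, Apoc3, Fabp1 and Fabp2, which encode apolipoproteins and fatty acid binding proteins of the absorptive cell. None of the 9 enzymes was used in this gate. Undifferentiated cells had under 0.5% of UMIs from these 6 genes, intermediate cells lay between these limits, and cells with Paneth, enteroendocrine, tuft, goblet or non-epithelial markers were set aside first. The enterocyte gate held 152 control and 302 antagonist cells, 1.35% and 2.74% of the kept cells, with medians of 7489.5 and 3880.5 UMIs. The undifferentiated set held 9853 and 7846 cells with medians of 4482 and 2716.5 UMIs, and the intermediate set 77 and 838. Independent enterocyte genes were in place: Rbp2 was higher in enterocyte-gated than in undifferentiated cells by 407-fold in the control and 63.5-fold in the antagonist library, and Krt20 by 301-fold and 25.2-fold. Lgr5 went the other way, with 76.0 CPM in undifferentiated and 5.44 CPM in enterocyte-gated control cells. In antagonist cells it was at 3.40 CPM, and at 0 of 1447100 UMIs in the enterocyte gate, which allows up to 2.07 CPM. A sort for this reporter should hold few enterocytes, so the enterocyte-gated cells are a sample of those that passed it.

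Some features of the libraries touch every comparison. Both libraries are labelled female, and the control library goes against that label: it had transcripts of 4 Y-linked genes (106 CPM, against 5.60 CPM in the antagonist library) and little Xist (1.33 CPM, against 512 CPM). Sex and condition therefore cannot be told apart. Whether a sex label is wrong or samples were exchanged was not tested, and the direction of every ratio rests on the library labels as given. In the antagonist library, 23 of 302 enterocyte-gated cells had a Y-linked UMI (19.3 CPM), against 165 of 7846 undifferentiated cells (5.01 CPM). Xist was found in 110 of these enterocyte-gated cells (144 CPM) and in 5463 of these undifferentiated cells (557 CPM). The enterocyte-gated cells thus differed in sex-linked transcripts from undifferentiated cells of the same library, and the reason was not tested. The libraries shared 145 barcodes, carried by 85 kept control cells and 127 kept antagonist cells, the latter with a median of 64920 UMIs. Leaving out the shared barcodes, or the control cells with Xist and the antagonist cells with Y-linked UMIs, changed none of the 5 counts of enzymes given here; these alternatives were chosen after seeing the data.

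To show the start regions of the genes at the ends of the order described below, the 250 bases before the annotated start are given for Dpp4 and Mgam, which had the highest levels in undifferentiated cells relative to enterocytes, and for Sis and Lct, which had among the lowest in the control library. The sequences are from RefSeq on GRCm38.p6, written in the direction of transcription, 5' to 3'. Capitals mark matches to any of 4 motifs, each searched on both strands. For CDX factors the letters searched were TTTATG. For GATA factors the letters were AGATAA, for HNF4 factors they were CAAAGTC, and the TATA box was searched as TATAAA.
Dpp4, chr2:62412232-62412481, minus strand: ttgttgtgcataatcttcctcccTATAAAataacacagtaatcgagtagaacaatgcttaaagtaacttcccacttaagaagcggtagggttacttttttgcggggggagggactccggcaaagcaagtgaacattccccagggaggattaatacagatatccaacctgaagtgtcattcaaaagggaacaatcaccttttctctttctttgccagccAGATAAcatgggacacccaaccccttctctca
Mgam, chr6:40628581-40628830, plus strand: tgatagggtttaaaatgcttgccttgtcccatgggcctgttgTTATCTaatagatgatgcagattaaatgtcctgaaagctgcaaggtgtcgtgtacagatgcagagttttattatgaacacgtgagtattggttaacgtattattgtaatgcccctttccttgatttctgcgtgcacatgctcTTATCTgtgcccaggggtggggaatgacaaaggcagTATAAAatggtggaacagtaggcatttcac
Sis, chr3:72967864-72968113, minus strand: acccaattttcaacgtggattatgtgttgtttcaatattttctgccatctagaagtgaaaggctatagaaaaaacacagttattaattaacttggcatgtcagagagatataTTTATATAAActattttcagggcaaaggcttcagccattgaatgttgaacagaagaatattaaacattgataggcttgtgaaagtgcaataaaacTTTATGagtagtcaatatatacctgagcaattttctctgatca
Lct, chr1:128328319-128328568, minus strand: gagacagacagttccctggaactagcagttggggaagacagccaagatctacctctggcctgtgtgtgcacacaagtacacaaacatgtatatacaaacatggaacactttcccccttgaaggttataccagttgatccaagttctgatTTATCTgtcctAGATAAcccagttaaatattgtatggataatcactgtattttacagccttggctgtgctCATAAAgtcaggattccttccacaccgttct
Dpp4 and Mgam each held TATA and GATA letters, Sis held CDX and TATA letters, and Lct held CDX and GATA letters. The pair of TATA matches in Sis overlap each other on opposite strands. Of 32851 start regions of the same length, 10.8% held the letters of CDX, 9.99% those of GATA, 3.84% those of HNF4 and 12.4% those of the TATA box. Among the 9 enzymes the letters of CDX were found in 2 (Sis and Lct), of GATA in 3 (Dpp4, Lct and Mgam), of HNF4 in 2 (Treh and Alpi) and of the TATA box in 5 (Enpep, Dpp4, Sis, Mgam and Alpi). Such matches describe letters in these windows, and no motif was found in Dpp4 and Mgam alone.

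Enterocyte-gated cells of the libraries had nearly the same levels of the enzymes. Sis, the sucrase-isomaltase that splits sucrose and starch fragments, had the most tags, and Treh, the trehalase, the fewest. None of the 9 differed by 1.5-fold. Of 7424 genes measured in these cells (20 or more UMIs over both libraries), 6.78% were 1.5-fold or more higher in the antagonist library and 9.62% were lower. The median log2 ratio, antagonist over control, was 0.08 over the 9 enzymes and -0.03 over all measured genes.

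Among the peptidases, Anpep (GRCm38 chromosome 7, 79821803 to 79861059), the aminopeptidase N that removes neutral residues from peptide ends, was highest, at 1510 CPM (1448 to 1574) in control and 1661 CPM (1596 to 1729) in antagonist enterocyte-gated cells, a ratio of 1.10 (1.04 to 1.17). Its tags cannot be split from those of Gm44974, a gene model that overlaps it on the same strand. Dpp4 (chromosome 2, 62330073 to 62412231), which releases dipeptides that end in proline or alanine, was at 406 CPM (374 to 440) and 351 CPM (321 to 383), a ratio of 0.865 (0.767 to 0.975). Mme (chromosome 3, 63241537 to 63386030), the endopeptidase neprilysin, was at 375 CPM and 435 CPM, with a ratio of 1.16 (1.03 to 1.30). Enpep (chromosome 3, 129269175 to 129332720), the glutamyl aminopeptidase for acidic residues, was at 323 CPM and 368 CPM, with a ratio of 1.14 (1.01 to 1.29). The order Anpep, Dpp4, Mme, Enpep in the control library became Anpep, Mme, Enpep, Dpp4 in the antagonist library. The intervals of Enpep and Dpp4 overlapped in the antagonist library, and those of Dpp4 and Mme, and of Mme and Enpep, in the control library.

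Among the disaccharidases, Sis (chromosome 3, 72888557 to 72967863) was at 2059 CPM (1986 to 2133) and 2135 CPM (2060 to 2211), a ratio of 1.04 (0.986 to 1.09). Mgam (chromosome 6, 40628831 to 40769123), the maltase-glucoamylase that releases glucose from starch fragments, was at 877 CPM and 903 CPM, a ratio of 1.03 (0.953 to 1.11). Lct (chromosome 1, 128284756 to 128328318), the lactase of the suckling period that persists at lower levels in adults, was at 365 CPM and 361 CPM, a ratio of 0.990 (0.876 to 1.12). Treh (chromosome 9, 44673233 to 44686305) was at 126 CPM and 133 CPM from 185 and 193 UMIs, a ratio of 1.06 (0.862 to 1.30). All 4 of these intervals included equality. Alpi (chromosome 1, 87098002 to 87101606), an alkaline phosphatase that detoxifies bacterial lipopolysaccharide, was at 734 CPM (691 to 780) and 901 CPM (853 to 951), a ratio of 1.23 (1.13 to 1.33), the largest of the 9. Its paralogs Akp3 and Alppl2 lie beside it on chromosome 1, and the labels do not say how reads shared by them were counted.

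These near-equal levels did not depend on how the gate score was spread, but depth moved them. With the bins of the gate score weighted alike, the 9 log2 ratios ran from -0.20 (Dpp4) to 0.25 (Alpi). In cells of 2000 to 10000 UMIs, chosen after seeing the data, all 9 were lower in the antagonist library. Their log2 ratios ran from -0.02 for Enpep to -0.59 for Treh, which was lower by more than 1.5-fold in this setting. With a gate of the 4 apolipoproteins alone, all 9 were higher, from 0.07 for Dpp4 to 0.54 for Sis. The direction of these small differences therefore depended on the setting for each of the 9 enzymes.

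Single enterocytes carried most of the enzymes at once. With each cell thinned to 3000 UMIs, which leaves out shallower cells, the median enterocyte-gated cell had tags of 7 of the 9 enzymes in the control library (138 cells) and of 6 in the antagonist library (183 cells). All 9 were found in 10.9% and 7.65% of these cells, and none of the cells lacked every enzyme. In thinned undifferentiated cells the median was 1 enzyme in both libraries, and 40.5% of 6677 control and 36.1% of 3566 antagonist cells had none. Sis was found in 97.8% and 95.6% of thinned enterocyte-gated cells, Anpep in 94.2% and 94.0%, and Treh in 37.0% and 26.8%. Without thinning the shares were 97.4% and 92.4% for Sis, 95.4% and 88.4% for Anpep, and 58.6% and 36.8% for Treh.

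**Figure D1:**
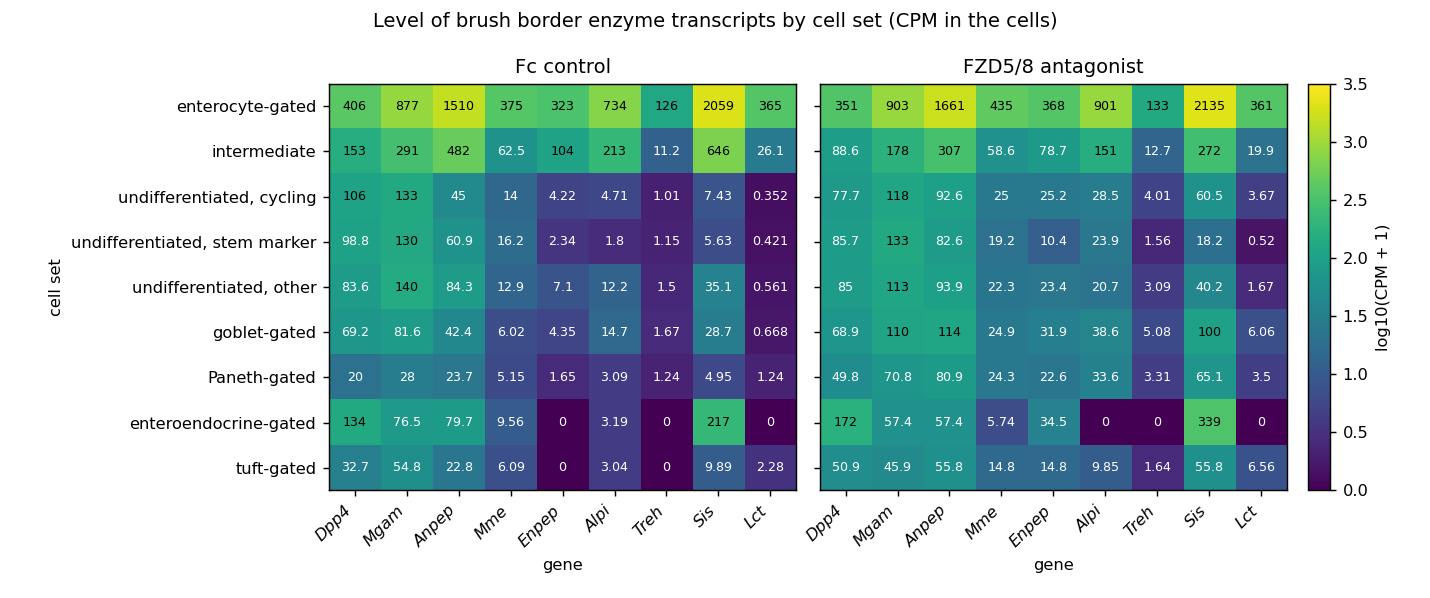
Level of each enzyme transcript in CPM (number in each field, colour on a log10 scale of CPM + 1) in 9 sets of cells, in the Fc control library on the left and the FZD5/8 antagonist library on the right. The enterocyte-gated row is alike in both panels (2059 and 2135 CPM for Sis), Dpp4 and Mgam are above 75 CPM in every undifferentiated set, and Enpep, Alpi and Sis are brighter in the cycling antagonist cells than in the cycling control cells.

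Dpp4 and Mgam had the highest levels in undifferentiated cells relative to enterocyte-gated cells. In control undifferentiated cells Mgam was at 132 CPM (129 to 135) and Dpp4 at 100.3 CPM (97.7 to 103), which were 15.1% (14.2 to 16.0) and 24.7% (22.7 to 26.9) of their own enterocyte-gated levels. In antagonist cells they were at 118 CPM (114 to 121) and 79.8 CPM (76.9 to 82.7), or 13.0% (12.2 to 13.9) and 22.7% (20.7 to 25.02). Most Dpp4 and Mgam tags lay outside enterocytes: undifferentiated cells held 82.5% of the Dpp4 and 77.5% of the Mgam UMIs of kept control cells, and 64.1% and 57.7% of those of antagonist cells. For Anpep and Mme, too, they held more UMIs than enterocyte-gated cells. Undifferentiated cells held 50.2% and 54.6% of these in the control library and 40.8% and 42.9% in the antagonist library. Of all UMIs of kept cells they held 54185310 of 66206242 in the control and 36511937 of 54328008 in the antagonist library. The shares of Dpp4 were near that of all UMIs, and those of Mgam, Anpep and Mme were below it. At 3000 UMIs per cell, Dpp4 was found in 25.2% of control and 23.7% of antagonist undifferentiated cells, and Mgam in 31.5% and 27.4%. Without thinning the shares were 37.6% and 26.0% for Dpp4 and 43.7% and 30.5% for Mgam.

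Anpep and Mme came next, and Lct last. In the control library Mme stood at 3.98% (3.57 to 4.45) and Anpep at 3.75% (3.54 to 3.96) of the enterocyte-gated level, with overlapping intervals. Enpep followed at 1.11% (0.938 to 1.32) and Treh at 0.895% (0.659 to 1.20), again overlapping, then Alpi at 0.550% (0.474 to 0.637) and Sis at 0.452% (0.410 to 0.497), which overlapped too. Lct was lowest, at 0.111% (0.0691 to 0.170), from 22 UMIs in 9853 cells. In the antagonist library the order was Dpp4, Mgam, Enpep (6.52%), Anpep (5.56%), Mme (5.53%), Alpi (2.94%), Treh (2.75%), Sis (2.51%) and Lct (0.841%). The first pair and the last gene kept their places, and Enpep moved from the fifth to the third. The intervals of Enpep, Anpep and Mme overlapped from neighbour to neighbour, as did those of Alpi, Treh and Sis.

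None of the 9 reached 25% of its enterocyte-gated level in undifferentiated cells of either library. Of all genes with 20 or more UMIs over the 2 cell sets, 93.5% of those in control cells and 94.2% of those in antagonist cells did. Dpp4 lay at this limit: it passed it in the control library at 25.7% with secretory cells kept in, in both libraries with totals that leave out mitochondrial and ribosomal protein genes (29.9% and 26.5%), and in both with an enterocyte gate at 1% (29.5% and 30.0%). With the 4 apolipoproteins as gate it fell to 16.2% and 12.4%.

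**Figure D2:**
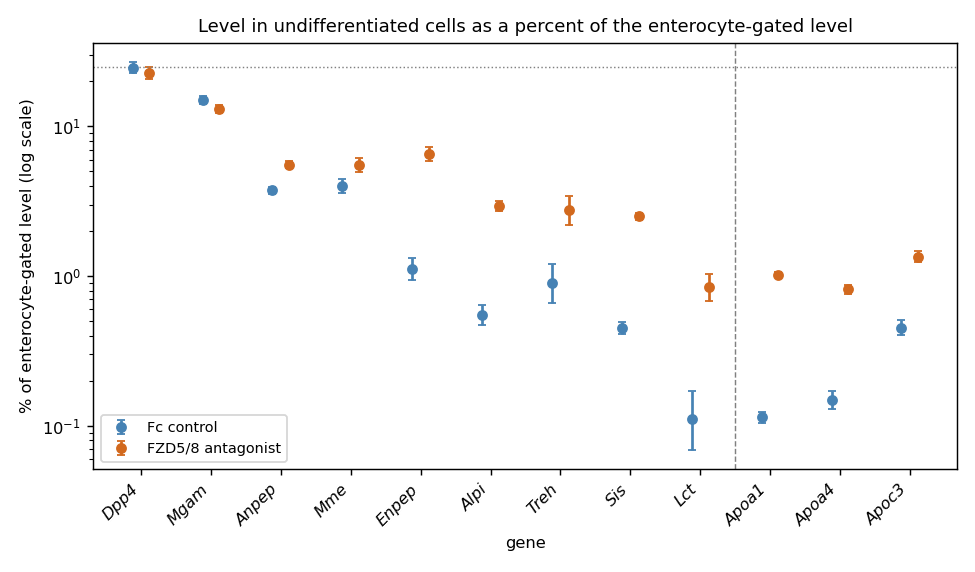
Level in undifferentiated cells as a percent of the enterocyte-gated level of the same library (log scale) for the 9 enzymes and, right of the dashed line, 3 apolipoproteins of the gate. Blue points are the Fc control library and orange points the FZD5/8 antagonist library. Bars are 95% intervals for counting error and the dotted line is 25%. Dpp4 and Mgam lie nearest the line in both libraries. Lct lies near Apoa1 and Apoa4, and Apoc3 lies above Lct, Apoa1 and Apoa4 in both libraries. The apolipoproteins helped define the cell sets, so their low values follow in part from the gate. Apob, a further apolipoprotein of the gate, is not shown.

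These low levels can be set against cells that should lack brush border enzymes, although this cannot settle how far they are the cells' own. Undifferentiated cells had an upper limit on the share of UMIs from the enterocyte gate genes, and the reference cells had none. Doublets with enterocytes could thus stay in the references and raise their levels. A level not above a reference therefore does not decide whether it is the cells' own. Tuft-gated cells, chemosensory cells of the same epithelium (238 control and 233 antagonist cells, medians of 4280 and 1890 UMIs), served for this. In the control library the interval of the undifferentiated level lay above that of tuft-gated cells for 5 of 9 enzymes: Dpp4 (tuft-gated 32.7 CPM), Mgam (54.8), Anpep (22.8), Mme (6.09) and Enpep (0 UMIs). In the antagonist library it did for 4 of 9: Dpp4 (50.9 CPM), Mgam (45.9), Anpep (55.8) and Alpi (9.85). For Sis, Lct and Treh the undifferentiated level was not separable from the tuft-gated level in either library, nor was that of Alpi in the control library or those of Enpep and Mme in the antagonist library. Sis was at 9.30 and 9.89 CPM in control undifferentiated and tuft-gated cells and at 53.6 and 55.8 CPM in antagonist ones, where 1 tuft-gated cell held 20 of the 34 Sis UMIs. The outcome depended on the cells chosen for reference. For the counts of enzymes above a reference, here and next, no share over all genes is given. They are therefore not read as particular to the enzymes. Goblet-gated and Paneth-gated cells were added after seeing the data. With all 3 references, the undifferentiated level was above each for 4 of 9 enzymes in the control library (Dpp4, Mgam, Anpep and Mme) and for 1 of 9 in the antagonist library (Dpp4). Anpep of the antagonist library was higher in goblet-gated cells, at 114 CPM (106 to 123), than in undifferentiated cells, at 92.4 CPM (89.3 to 95.5). Alpi was also higher in goblet-gated (38.6 CPM, 33.9 to 43.9) and Paneth-gated cells (33.6 CPM, 28.8 to 39.0) than in undifferentiated cells (26.5 CPM, 24.8 to 28.2). Apoa4 and Apoa1, apolipoproteins of mature enterocytes, stood at 0.149% and 0.114% of the enterocyte-gated level in control undifferentiated cells. In antagonist undifferentiated cells they stood at 0.814% and 1.02%. Both are genes of the gate, so their low percentages follow in part from it and are no benchmark for the enzymes. Apob, another apolipoprotein of the gate, stood higher by this measure. It was at 76.1 CPM in undifferentiated and 1010 CPM in enterocyte-gated control cells, and at 68.6 and 1025.5 CPM in antagonist ones. Apoc3, also of the gate, was above Apoa4 and Apoa1 by this measure too. It was at 6.42 and 1423 CPM in these control cells and at 22.1 and 1637 CPM in the antagonist ones.

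Along the gate score the enzymes rose at different points. The score is the share of a cell's UMIs from the 6 gate genes, and it was divided at 0.25, 0.5, 1, 2 and 4%. Dpp4 in the antagonist library did not rise above its lowest bin up to a score of 1%, at 87.6, 72.6 and 82.2 CPM in the lowest 3 bins. It was then at 116 and 148 CPM, and at 457 CPM (415 to 502) at 4% and above. In the control library it was at 100.5, 94.5, 169, 132, 250.03 and 499 CPM over the 6 bins. Mgam in the antagonist library was at 126 CPM (120 to 131), 110 CPM (106 to 115) and 148 CPM (135 to 161) in the lowest 3 bins, and then at 306, 572 and 1075 CPM. In the control library Mgam was at 132, 128, 244 (206 to 287), 352, 756 and 950 CPM. Dpp4 and Mgam passed 25% of their highest bin at a score of 0.5% in control cells, before the other 7 enzymes. In antagonist cells they passed it at 1%, together with Enpep, Anpep, Mme, Sis and Alpi. In the control bin from 0.5% Mgam stood at 25.7% of its highest bin, Enpep at 22.8% and Sis at 22.5%, within counting error, so no order among these is shown. Dpp4 was already at 20.2% in the lowest control bin, then at 33.9% in the bin from 0.5% and 26.5% in the one from 1%.

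Sis, Alpi and Enpep climbed over the whole score. Sis in the control library was at 5.58 CPM below 0.25% and at 129, 499, 833, 1779 and 2225 CPM in the further bins, a 399-fold range. In the antagonist library it was at 30.4, 75.1, 177, 673, 1398 and 2517 CPM, an 82.9-fold range. Alpi was at 2.21 CPM in the lowest and 855 CPM in the highest control bin, and at 15.3 and 1003 CPM in the antagonist library. Enpep passed 25% of its highest bin at a score of 1% in both libraries. Lct and Treh passed this mark only at 2% in both libraries, with Lct at 32.0 CPM (17.9 to 52.7) in the control bin of 1 to 2% and 483 CPM (440 to 531) at 4% and above. Mme passed it at 2% in control cells and at 1% in antagonist cells. The control bins from 0.5 to 2% held 42 and 35 cells, with medians of 11126 and 10122 UMIs against 2284 and 2218 in the antagonist library, so their values rest on few and deep cells.

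Within the enterocyte gate the enzymes did not all keep rising. Alpi was at 531 CPM (472 to 596) at a score of 2 to 4%, 1053 CPM (964 to 1148) at 4 to 8% and 633 CPM (560 to 712) at 8% and above in the control library. In the antagonist library it was at 705 CPM, 1171 CPM and 767 CPM (683 to 858) in the same bins. Its highest level was thus in the middle bin of both libraries, with no overlap with the top bin. Dpp4 was highest in the top bin of both, at 635 CPM (563 to 715) and 593 CPM (520 to 674), against 377 and 360 CPM in the middle bin. Mgam fell from 1107 to 773 CPM between these bins in the control library, while in the antagonist library it stood at 1090 and 1055 CPM. The top bin held 41 control and 70 antagonist cells, and as it is defined by the share of 6 abundant genes, a higher score leaves fewer UMIs for every other gene.

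**Figure D3:**
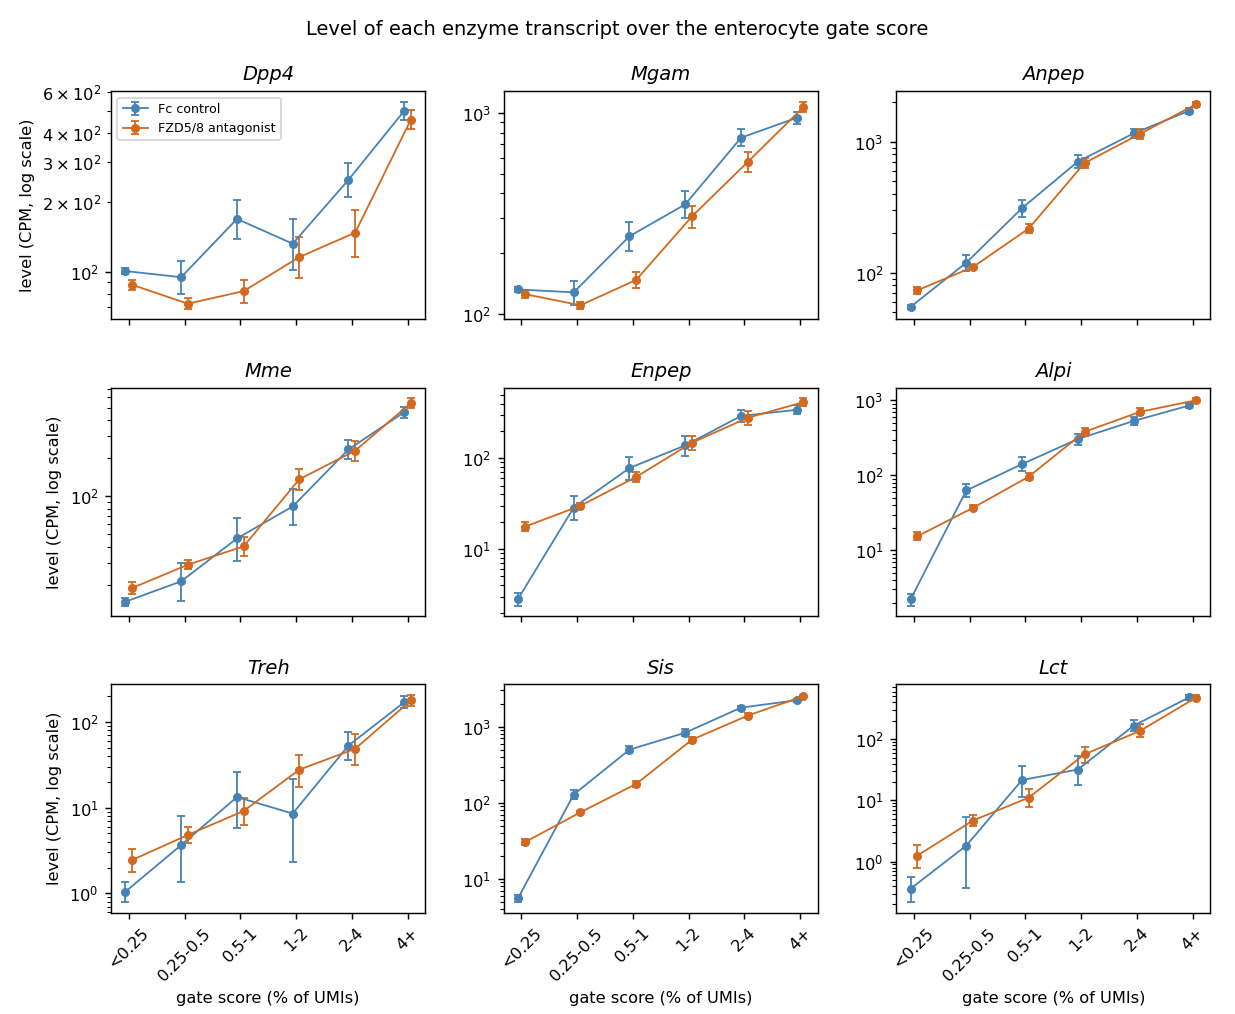
Level of each enzyme (CPM, log scale) in non-secretory cells over 6 bins of the share of UMIs from the 6 enterocyte gate genes, for the Fc control (blue) and the FZD5/8 antagonist library (orange), with 95% intervals for counting error. Dpp4 and Mgam span the smallest ranges (4.96-fold and 7.18-fold in the control library), Sis rises from 5.58 to 2225 CPM in the control library, and for Enpep, Alpi and Sis the antagonist library is higher in the lowest bin; in the next one the intervals of Enpep overlap and Alpi and Sis are lower.

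In undifferentiated cells, 7 of the 9 enzymes were 1.5-fold or more higher in the antagonist library, where 7.6% of 13183 measured genes were higher by this size and 20.1% were lower. The median log2 ratio was 1.70 over the enzymes and -0.16 over all measured genes. Dpp4 and Mgam were the exceptions, with ratios of 0.795 (0.760 to 0.832) and 0.890 (0.857 to 0.924). Among the others, Anpep and Mme had the smallest ratios, and Treh lay between these and the rest. Enpep was at 3.60 CPM (3.11 to 4.14) and 24.0 CPM (22.5 to 25.7), 6.67-fold higher (5.71 to 7.84), Alpi at 4.04 and 26.5 CPM, 6.55-fold higher (5.65 to 7.62), and Sis at 9.30 and 53.6 CPM, 5.76-fold higher (5.22 to 6.36). Lct, at 0.406 and 3.04 CPM, was 7.49-fold higher (4.71 to 12.4) and Treh, at 1.13 and 3.67 CPM, was 3.26-fold higher (2.39 to 4.49). Anpep, at 56.5 and 92.4 CPM, was 1.63-fold higher (1.55 to 1.72) and Mme, at 14.9 and 24.1 CPM, was 1.61-fold higher (1.46 to 1.77).

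The size of these differences rested in part on depth and on the limit of the set. Anpep and Mme fell below 1.5-fold in 6 of 15 alternatives, among them thinning to 3000 UMIs (log2 ratios of 0.45 and 0.52), leaving out the 5% of cells with most UMIs (0.50 and 0.48) and a limit of 0.25% on the score (0.42 and 0.36). Lct went from a log2 ratio of 2.90 to 1.64 in thinned cells, 1.79 at the limit of 0.25% and 1.19 in cells without a UMI of Apoa1, Apoa4 or Apoc3. For Treh the first 2 of these were 1.18 and 1.23, against 1.70. Sis went from 2.53 to 1.62 when the 4 apolipoproteins alone set the limit, and Alpi from 2.71 to 2.11. Enpep stayed between 2.20 and 2.88 over the 15 alternatives.

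Most genes of the enterocyte gate moved with this result. The median gate score of undifferentiated cells was 0.0659% in the control and 0.193% in the antagonist library, and the part of the set with scores from 0.25 to 0.5% held 204 control and 2616 antagonist cells. In that bin Alpi, at 62.8 and 36.8 CPM, and Sis, at 129 CPM (112 to 147) and 75.1 CPM (71.2 to 79.1), were lower in the antagonist library. The intervals of the libraries overlapped for Enpep, at 28.7 CPM (21.1 to 38.1) and 30.0 CPM (27.6 to 32.5), for Anpep (119 and 110.2 CPM), Mme (21.3 and 28.9 CPM), Lct (1.83 and 4.70 CPM) and Treh (3.66 and 4.80 CPM). Below 0.25%, with 9649 and 5230 cells, Enpep was at 2.82 CPM (2.38 to 3.31) and 17.6 CPM (15.7 to 19.7), Alpi at 2.21 and 15.3 CPM, and Sis at 5.58 and 30.4 CPM. Apoa1 in the same bin was at 9.61 and 29.6 CPM and Apoa4 at 3.60 and 9.74 CPM. Of the 6 gate genes only Apob was lower in the antagonist library there, at 75.1 and 60.0 CPM. The enzymes were also higher in cells of other lineages of the antagonist library: 7 of 9 by 1.5-fold or more in goblet-gated cells (8.65% of all measured genes), 3 of 4 measured in tuft-gated cells (9.55%) and 9 of 9 in Paneth-gated cells, where 70.8% of all measured genes were higher by this size. In goblet-gated cells Enpep was at 4.35 and 31.9 CPM, 7.35-fold higher (4.20 to 14.0), and Sis at 28.7 and 100.4 CPM, 3.49-fold higher (2.78 to 4.43). Single cells weighed on the control values there: 1 control cell held 56 of the 86 Sis UMIs and 1 held 42 of the 44 Alpi UMIs. Sis was found in 4.29% of control and 24.2% of antagonist goblet-gated cells. How much of the difference in undifferentiated cells came from enterocyte RNA outside enterocytes, from doublets or from the cells themselves was not tested.

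At equal depth, Enpep was found in 0.839% (0.634 to 1.09) of control and 6.11% (5.35 to 6.95) of antagonist undifferentiated cells, Sis in 1.48% and 9.48%, and Alpi in 0.599% and 5.36%. The unthinned values were 1.63% and 7.91%, 2.35% and 12.0%, and 1.23% and 7.67%. In thinned tuft-gated cells Enpep was found in 0 of 174 control cells, which allows up to 1.72%, and in 4 of 55 antagonist cells, 7.27% (2.02 to 17.6). Sis was found there in 1.15% and 7.27% and Alpi in 1.15% and 1.82%. Without thinning the tuft-gated shares were 0% and 2.15% for Enpep, 2.10% and 5.15% for Sis, and 1.68% and 2.15% for Alpi. At equal depth the antagonist share of Enpep and the control share of Alpi were below those of tuft-gated cells and are not read as expression. The shares of Sis were above those of tuft-gated cells by less than counting error, with tuft-gated intervals of 0.14% to 4.09% in the control and 2.02% to 17.6% in the antagonist library. The same held for the antagonist share of Alpi, with a tuft-gated interval of 0.046% to 9.72%. It also held for the control share of Enpep, which was below the 1.72% that the tuft-gated cells allow. The antagonist tuft-gated values rest on 55 cells. As tuft-gated cells had no upper limit on the enterocyte gate genes, shares not above theirs do not decide whether undifferentiated cells express the enzyme.

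Cycling and stem marker cells of the undifferentiated set were looked at apart. In cycling cells (3510 control and 4340 antagonist), 7 of 9 enzymes were 1.5-fold or more higher in the antagonist library (7.65% of all measured genes), led by Lct (10.4-fold, 5.08 to 24.8, from 8 and 96 UMIs), Sis (8.13-fold, 6.93 to 9.59), Alpi (6.06-fold, 4.94 to 7.49) and Enpep (5.97-fold, 4.81 to 7.47). In non-cycling cells with stem markers (4622 and 408), 3 of 8 measured enzymes were (9.28% of all measured genes): Alpi, Enpep (2.34 and 10.4 CPM) and Sis (5.63 and 18.2 CPM). Alpi, at 1.80 and 23.9 CPM, rested on 1 antagonist cell that held 29 of the 46 UMIs. Anpep there was at 60.9 CPM and at 82.6 CPM, with a ratio of 1.36 (1.15 to 1.60), and Dpp4 at 98.8 and 85.7 CPM, a ratio of 0.868 (0.737 to 1.02). In the remaining undifferentiated cells (1721 and 3098) Sis was at 35.1 CPM and at 40.2 CPM, with a ratio of 1.14 (0.955 to 1.38). This ratio rested on few control cells: 10 of them held 144 of the 188 Sis UMIs, and Sis was found in 2.38% of control and 8.10% of antagonist cells. In this set 4 of 8 measured enzymes were 1.5-fold or more higher (5.34% of all measured genes). Whether the ratios differ between these sets was not tested.

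In intermediate cells the direction was the other way. None of the 9 enzymes was 1.5-fold or more higher in the antagonist library (16.2% of 9452 measured genes were), and 4 were lower by this size (9.59% of measured genes): Sis at 646 and 272 CPM, 2.37-fold lower (2.15 to 2.61), Dpp4 at 153 and 88.6 CPM, Mgam at 291 and 178 CPM, and Anpep at 482 and 307 CPM. The intermediate cells of the libraries differed in their median gate score, 0.884% and 0.695%, and in their median depth, 10435 and 2267 UMIs.

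**Figure D4:**
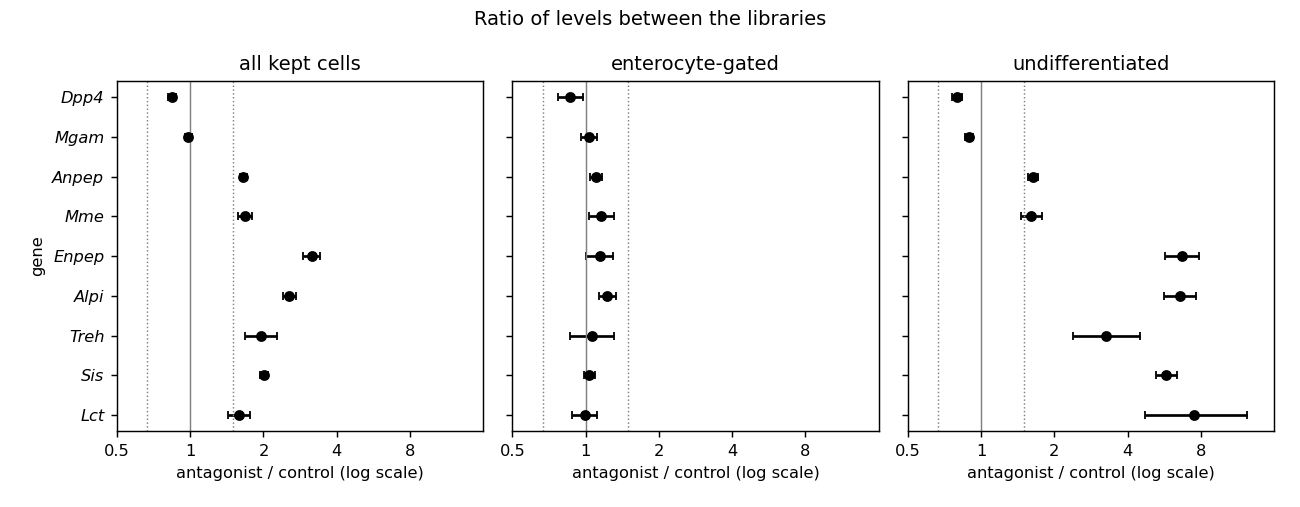
Ratio of the level in the FZD5/8 antagonist library to that in the Fc control library (log scale) for each enzyme, with 95% intervals for counting error, in all kept cells, enterocyte-gated cells and undifferentiated cells. Dotted lines mark 1.5-fold in each direction; the points of enterocyte-gated cells lie between them, from 0.865 to 1.23, and those of undifferentiated cells reach 7.49.

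Over all kept cells, 7 of the 9 enzymes were 1.5-fold or more higher in the antagonist library, where 6.5% of 13757 measured genes were higher and 19.3% lower by this size. The median log2 ratio was 0.75 over the enzymes and -0.15 over all measured genes. Enpep was at 12.1 and 38.2 CPM, 3.15-fold higher (2.90 to 3.42), and Alpi at 24.0 and 61.4 CPM, 2.56-fold higher (2.41 to 2.72). Sis was 2.01-fold higher (1.93 to 2.08), Treh 1.95-fold (1.67 to 2.28), Mme 1.68-fold, Anpep 1.65-fold and Lct 1.59-fold (1.43 to 1.77). The ratio of Mgam was 0.982 (0.952 to 1.01), and Dpp4 was 1.19-fold lower (1.14 to 1.24). Lct was below 1.5-fold, at a log2 ratio of 0.58, under a stricter filter of 1000 genes and 10% mitochondrial UMIs.

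The cell sets that held these tags differed between the libraries. Enterocyte-gated cells held 68.6% of the Sis UMIs of kept control cells and 42.5% of those of antagonist cells, 59.2% and 25.7% of Enpep, 67.9% and 39.1% of Alpi, and 89.8% and 67.1% of Lct. Undifferentiated cells held 11.4% and 26.9% of the Sis UMIs and 24.3% and 42.2% of those of Enpep, although they were 87.5% and 71.2% of kept cells. Goblet-gated cells held 1.95% of the Sis UMIs in the control and 8.44% in the antagonist library, and Paneth-gated cells 0.544% and 4.61%.

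**Figure D5:**
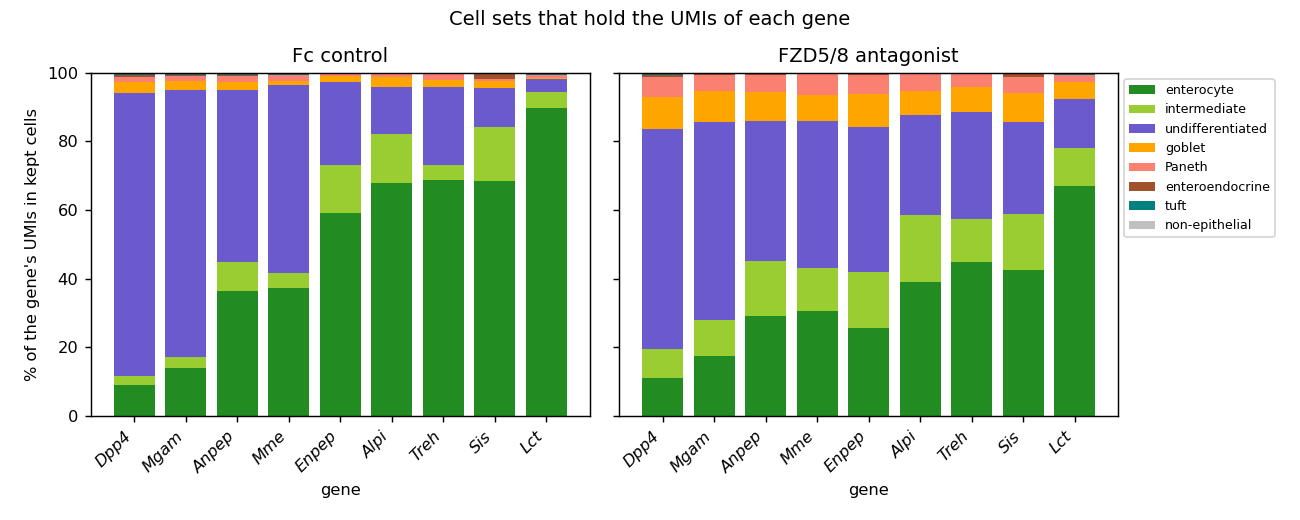
Share of each enzyme's UMIs in kept cells (percent, stacked bars from 0 to 100) that lay in each cell set, for the Fc control library on the left and the FZD5/8 antagonist library on the right. The enterocyte part of the Sis bar is 68.6% in the control and 42.5% in the antagonist library. Undifferentiated cells hold the largest part of Dpp4, Mgam, Anpep and Mme in both libraries, and of Enpep in the antagonist library. They also hold most of all UMIs of kept cells in both libraries.

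Enteroendocrine-gated cells, the hormone cells of the epithelium, had more Sis tags than undifferentiated cells. Sis was at 217 CPM (168 to 275) in 52 control cells, 19 of which had a UMI, and at 339 CPM (258 to 437) in 60 antagonist cells, 23 of which had one. Dpp4, which inactivates the incretin hormones, was at 134 CPM (96.5 to 181) in the control library, an interval that includes the undifferentiated level of 100.3 CPM, and at 172 CPM (116 to 246) in the antagonist library. Lct and Treh had 0 UMIs in these cells in both libraries, and Alpi had 1 and 0. The ratio of Sis to Lct tags there was thus unlike that of the enterocyte gate, where Sis had 3027 and 3089 UMIs and Lct 537 and 523.

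Other genes of the brush border were counted by 4 lists. Among other brush border hydrolases, 14 of 20 were measured in enterocyte-gated cells. There 2 were 1.5-fold or more higher in the antagonist library and 1 lower (6.78% and 9.62% of all measured genes), with a median log2 ratio of 0.18. The share of lower ones was near that over all genes. The higher ones were Ace, the angiotensin-converting dipeptidase, at 318 and 538 CPM, 1.69-fold higher (1.51 to 1.90), and Smpdl3b, a lipid phosphodiesterase, at 15.6 and 24.2 CPM with an interval that included equality. Akp3, the alkaline phosphatase beside Alpi, was the lower one, at 134 and 83.6 CPM, a ratio of 0.624 (0.493 to 0.787), and Naaladl1 was at 85.0 and 69.1 CPM. In undifferentiated cells 9 of 15 measured were 1.5-fold or more higher and 2 lower, with a median of 1.06, where 7.6% of all measured genes were higher and 20.1% lower. Ace was among the higher ones, at 2.57 and 10.5 CPM. The lower ones were Mep1a, a subunit of the metalloprotease meprin (9.82 and 5.37 CPM), and Cpm, a carboxypeptidase (9.78 and 3.999 CPM). The list also holds Lypd8, a surface protein that is not a hydrolase, at 997 and 1998 CPM. Mep1a, Cpm and Lypd8, and the genes of microvillus structure and the transcription factors given for undifferentiated cells, were chosen after their values were seen.

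Carriers for sugars, peptides and amino acids were counted in the same way, beside 6.78% of all measured genes higher and 9.62% lower in enterocyte-gated cells. None of 15 measured carriers was past 1.5-fold in enterocyte-gated cells (median log2 ratio 0.22), with Slc6a20a (104 and 155 CPM) and Slc6a19 (104 and 153 CPM), carriers of proline and of neutral amino acids, at the upper end and Slc7a9 (129 and 124 CPM) and Slc3a2 (132 and 131 CPM) at the lower. In undifferentiated cells 11 of 15 were 1.5-fold or more higher and none lower (7.6% and 20.1% of all measured genes), with a median of 1.02, and Slc6a20a was at 1.33 and 12.2 CPM. Of genes of microvillus structure, in enterocyte-gated cells 0 of 19 were past 1.5-fold, with Pdzk1 (64.6 and 88.5 CPM), Myo1d (66.6 and 89.1 CPM), Lima1 (336 and 261 CPM) and Espn (150.3 and 111 CPM) at the ends, and in undifferentiated cells 4 of 18 were higher and 3 lower (7.6% and 20.1% of all measured genes), with a median of 0.06. The share of lower genes was near that over all genes. The higher ones were Espn, an actin bundler (2.60 and 5.51 CPM), the cadherins Cdhr5 (28.7 and 60.5 CPM) and Cdhr2 (23.2 and 37.1 CPM), and the motor protein Myo1a (48.2 and 86.1 CPM). The lower ones were Eps8 (101 and 44.7 CPM), Eps8l2 (27.5 and 12.8 CPM) and Myo7b (50.5 and 27.7 CPM).

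Of 20 transcription factors of absorptive genes, 16 were measured in enterocyte-gated cells. Of these 1 was higher and 1 lower (6.78% and 9.62% of all measured genes), with a median of -0.19, and both shares were near those over all genes. The lower one, Gata5, was at 32.6 CPM and at 15.9 CPM, with a ratio of 0.487 (0.283 to 0.816), Hnf4g at 348 and 250.2 CPM, Hnf4a at 91.1 and 108 CPM and Klf5 at 197 and 231 CPM. In undifferentiated cells 4 of 20 were higher, among them Maf (7.12 and 32.4 CPM), Creb3l3 (6.79 and 21.1 CPM) and Ppara (14.6 and 24.98 CPM), and 4 were lower, among them Bcl6 (4.87 and 1.23 CPM), Gata5 (26.9 and 15.3 CPM) and Tead1 (32.3 and 19.5 CPM). Over all measured genes 7.6% were higher and 20.1% lower, so the share of lower factors was near that over all genes. The median was 0.12.

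The lists also differed in the level of undifferentiated cells. The median level in control undifferentiated cells, as a percent of the enterocyte-gated level, was 1.11% for the 9 enzymes, 0.808% for the other hydrolases, 6.35% for the carriers, 26.0% for microvillus genes, 96.0% for the transcription factors and 155% over all genes. In the antagonist library the medians were 5.53%, 2.02%, 7.86%, 18.1%, 96.2% and 146%. Of the 9 enzymes, 7 were under 5% among control cells and 4 among antagonist cells, where 1.99% and 1.29% of all genes were.

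Genes of the most similar pattern were sought by the correlation of log2(CPM + 1) over 18 points, 9 cell sets in each of the 2 libraries, among 8508 genes. The points share libraries and overlap in cell type, so the values are descriptions. Dpp4 was most like Phyh (r = 0.96), Dpyd and Gstm6, and Mgam most like Ckb (0.99), Epb41l3 and 2210407C18Rik. Enpep was most like Slc51a (0.98), Slc6a20a and Mall, Sis like Krt20 (0.97), Igsf9 and Gstk1, and Alpi like Gm21885 (0.97) and Slc26a6. Lct was most like Ggt1 (0.99), Slc15a1 and Dpep1, Treh like Dpep1 (0.97), 2010106E10Rik and Gpt, Anpep like Rdh7 (0.98), Srxn1 and Slc5a1, and Mme like Ces2c (0.97), Treh and Anpep. Among the enzymes themselves the highest r was that of Mme and Treh (0.97) and the lowest that of Dpp4 and Alpi (0.54).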

How the data were processed

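Per the labels' protocols, GFP-sorted jejunal cells were captured with 10x Chromium 3' chemistry (V3.1). The authors deposited raw UMI counts for each gene and barcode. The submitters' processing notes name Cell Ranger and GRCm38 (mm10), and the software version is 3.1.0 per the file headers. What annotation release and strand setting were used and how barcodes were chosen is not stated there. The 9 genes, the gates, the lists and most alternatives were chosen with earlier results of these data known.

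Counts were summed over cell sets per library (67411637 and 55810293 UMIs in 12672 and 13085 barcodes) and divided by the set's total to give CPM (Python 3.11.15, numpy 2.4.6, scipy 1.17.1, pandas 2.3.3). Levels have exact Poisson, ratios exact conditional binomial and shares exact Clopper-Pearson 95% intervals, all for counting error only. A gene was measured in a comparison with 20 or more UMIs over both libraries, and 0.5 UMI was added to each sum for log2 ratios. A count of 0 was given a limit of 3 counts. No test was made, as each group had 1 library, and ratio intervals were tested on simulated data.

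Gates on shares of UMIs took a cell first as non-epithelial (0.3%), Paneth (5%), enteroendocrine (0.5%), tuft (0.3%) or goblet (0.5%), then by its enterocyte score. Cycling cells had 0.1% of UMIs from 10 mitotic genes, and stem marker cells 2 UMIs over Lgr5, Ascl2, Gkn3, Smoc2, Axin2 and Rgmb. Of each list the 2 highest and 2 lowest ratios in enterocyte-gated cells are named, among genes with 20 CPM or more, and for each enzyme the 3 genes of highest correlation. A few genes of these lists are not reported here. Doublets were not removed. Alternatives were other cell filters, thinning, gates, scalings, equal weight for each cell, and leaving out the deepest cells, shared barcodes or cells against the library's sex-linked transcripts. Gene positions are from a GRCm38 annotation (GENCODE) that held 30934 of the 31053 gene identifiers.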

Additional observations from a re-analysis of the deposited data

How the results depend on the processing

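No difference past 1.5-fold under the main settings changed direction. The number of enzymes 1.5-fold or more higher in the antagonist library stayed at 0 in enterocyte-gated cells (14 alternatives). It stayed at 6 or 7 in all kept cells (10) and at 5 to 7 in undifferentiated cells (15), the 5 being Enpep, Alpi, Sis, Lct and Treh. On the lower side, Treh passed 1.5-fold in enterocyte-gated cells of 2000 to 10000 UMIs, at a log2 ratio of -0.59. The number at 25% or more of the enterocyte-gated level, 0 in both libraries, became 1 (Dpp4) in both with totals without mitochondrial and ribosomal protein genes and with an enterocyte gate at 1%. It became 1 in the Fc control with secretory cells not taken out, and 1 in the FZD5/8 antagonist library in undifferentiated cells without a UMI of Apoa1, Apoa4 or Apoc3, an alternative chosen after seeing the data. The cause was not tested. Of 351 log2 ratios of single enzymes under an alternative, 121 moved by more than counting error, and of 288 percentages 154 did. No ratio reversed a called direction. Ratios called neither higher nor lower had no direction to reverse, and some of them changed sign. Percentages have no direction. Centring on a median gene moved log2 ratios by 0.07, 0.03 and 0.09 in all kept, enterocyte-gated and undifferentiated cells. The median log2 ratios over all measured genes were -0.15, -0.03 and -0.16, so the centring shift is not that median. No paired analysis was possible because each condition had 1 library. Depth limits Lct and Treh most, at 22 and 61 UMIs in control undifferentiated cells, and the small tuft-gated and enteroendocrine-gated sets. Differences between mice cannot be seen.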
